A study of Mus musculus with 30 samples.

Results

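Adipose tissue macrophages (ATMs) of obese recipients given beinaglutide and an anti-IL-17A antibody together (Combo) were compared with ATMs of lean WT recipients, to ask which genes still differed from WT after the combined treatment and which had become different under it. The members are 6 of the 30 libraries of the series, 3 from Combo and 3 from WT recipients, read over all 17059 genes of the ATM count table, and the 3 ATM libraries of obese recipients given vehicle (Vehicle) served to tell the genes that stayed different from those that were new. WT recipients carry a normal leptin gene, whereas Ob/Ob recipients lack functional leptin, overeat and become obese. All recipients, WT included, were irradiated with 700 and 400 cGy and transplanted with CD45.2+ BM cells of Shp2E76K/+;LysM-Cre+ donors in equal parts with CD45.1+ Boy/J competitor cells, where Shp2E76K is an activated form of the phosphatase that Ptpn11 encodes and LysM-Cre switches it on in myeloid cells. From 8 weeks after transplantation and for 30 days, Combo recipients were given the GLP-1R agonist beinaglutide at 3 mg/kg under the skin and 200 μg of anti-IL-17A per mouse into the peritoneum 3 times a week. Vehicle recipients were given the carrier alone, and the labels name no treatment for WT recipients. The labels put all mice at 12 to 14 weeks of age, count 3 mice per group and describe the groups as sex-matched, with males and females included. The study gives another age range, for recipients at irradiation. With treatment from 8 weeks after transplantation and for 30 days, the labelled age cannot be the age of treated mice at sampling. ATMs were F4/80+ cells sorted from visceral fat, with no CD45.1 or CD45.2 gate named for this sort, so a library can hold mutant donor, competitor and remaining host cells.

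Macrophages are the most abundant immune cells of fat. In lean tissue, resident macrophages with the scavenger receptors Lyve1, Mrc1 and Cd163 clear debris and buffer lipid, whereas in obesity recruited monocytes become lipid-associated macrophages, which surround dying adipocytes and carry Trem2, Gpnmb, Spp1 and lysosomal enzymes. Neutrophils also enter obese fat, where their granules release proteases and antimicrobial proteins.

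Combo and WT differed in recipient genotype, in adiposity and in treatment at once, and these cannot be told apart here. The study gives mutant donor cells to both groups in its design but names WT donor cells in a legend on ATMs, so a difference in donor cannot be told apart either. WT libraries held 24876074 to 28369275 counts on genes and Combo libraries 31854058 to 35092875, and the median coefficient of variation between the 3 libraries of a group was 3.05% in WT and 2.67% in Combo for genes of 10000 or more normalized counts, but 41.8% and 49.3% for genes of 10 to 100. Normalized counts are counts per effective library size, scaled to the mean effective size of the 15 ATM libraries. All 13 core macrophage genes were detected in every library, with summed levels of 165684 to 174259 normalized counts in WT and 418879 to 422092 in Combo. Of these 13 genes 6 were called higher than WT and 0 lower. Transcripts of other organs and of the sex chromosomes separated the same 2 groups. Epididymis genes summed to 525985 to 538774 normalized counts in WT and 111 to 200 in Combo, spermatid genes to 4177 to 4566 and 15 to 63, mesothelial genes to 63020 to 65974 and 9718 to 10594, and pancreatic acinar genes to 2444 to 2583 and 55775 to 56720. Xist, transcribed from the inactive X chromosome, was at 14, 8 and 26 normalized counts in WT and at 1082, 1264 and 1041 in Combo, and the Y-linked Ddx3y at 3767, 3678 and 3760 in WT and 267, 202 and 389 in Combo. Of 5 sex-linked genes Xist was higher and 4 were lower. Vehicle libraries were Xist-high as well (998 to 1533), so the sex composition of the sorted cells cannot be told apart from the group in either comparison with WT. The plot of other-tissue genes and sex-linked genes shows these levels in every library. Within a group the sums of these other-organ genes lay close together. Whether the 3 libraries of a group came from separately sorted mice was not tested. The SE and adjusted p given below describe the spread between libraries, which could be narrower than that between mice.

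**Figure D1:**
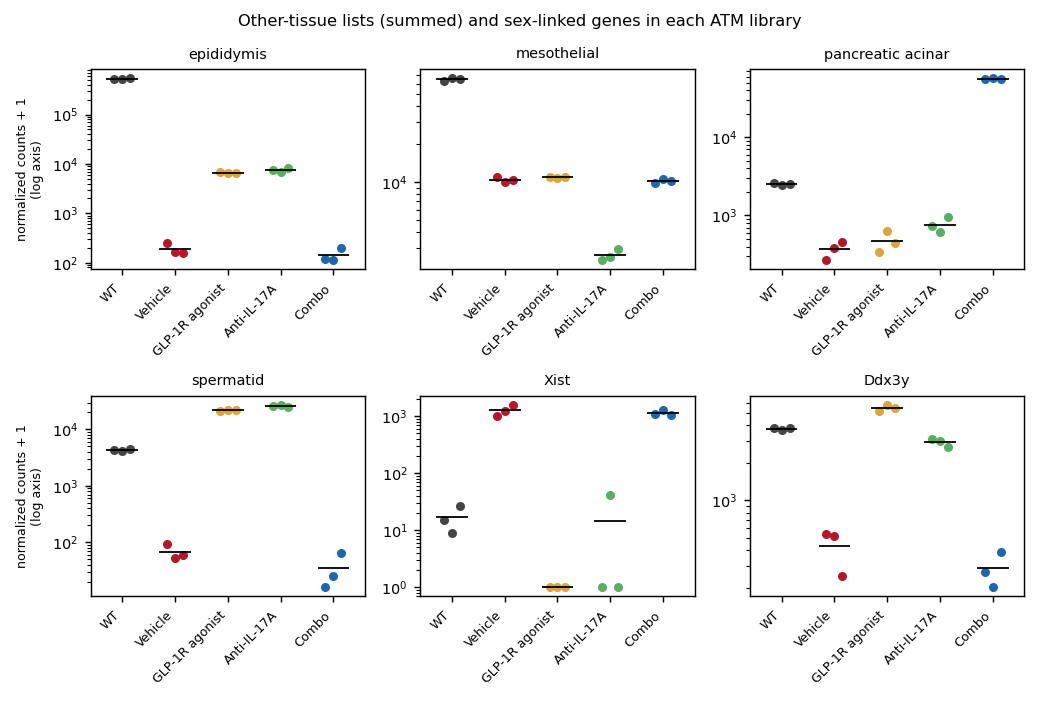
Summed normalized counts + 1 of the epididymis, mesothelial, pancreatic acinar and spermatid gene lists and normalized counts + 1 of Xist and Ddx3y in each of the 15 ATM libraries, on log axes. Points are single libraries, 3 per group, and bars are group means. Epididymis, mesothelial and spermatid sums and Ddx3y are higher in all 3 WT than in all 3 Combo libraries, and the pancreatic acinar sum and Xist are higher in all 3 Combo libraries.

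Between Combo and WT, 3681 of 17059 genes were called (21.6% of the genes tested), 1208 of them higher in Combo (7.08%) and 2473 lower (14.5%). A gene was called at an adjusted p below 0.05 by the quasi-likelihood test of edgeR with a log2 fold change beyond 1 in either direction. Most genes listed for neutrophils, lipid-associated macrophages, mitosis and DNA replication and all those listed for T cells were higher in Combo, 5 of 15 resident macrophage genes and the alternative-activation product Retnla were lower, and most interferon-stimulated genes and all NF-kB genes listed were not called. The median log2 fold change over all genes was -0.12. Of the 3681 called genes, 941 had 3 counts or fewer in every library of WT or of Combo, 855 of them lower and 86 higher in Combo. In bulk RNA, fewer cells of a type and less RNA per cell cannot be told apart.

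**Figure D2:**
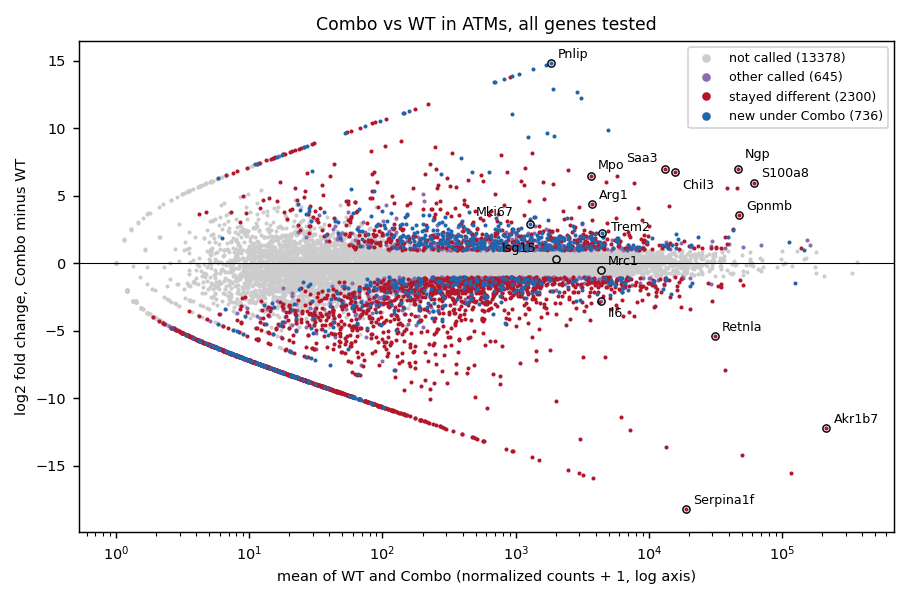
Log2 fold change of Combo minus WT against the mean of the WT and Combo libraries (normalized counts + 1, log axis) for 17059 genes in ATMs. Red points are the 2300 genes that stayed different, blue points the 736 that were new under Combo, purple points the other 645 called genes and gray points genes not called, and 16 genes are ringed and named. Pnlip lies highest and Serpina1f lowest.

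Vehicle vs WT, which shares the WT libraries, called 6034 genes (35.4%), 2125 higher (12.5%) and 3909 lower (22.9%). Both comparisons called 2300 genes in the same direction (13.5% of the genes tested), which are the genes that stayed different, 545 of them higher and 1755 lower than WT. Among these, Combo itself differed from Vehicle in 596 genes, being closer to WT in 470 and farther from WT in 126. A further 736 genes (4.31%) were new, that is called against WT and against Vehicle in the same direction but not in Vehicle vs WT, with 393 higher and 343 lower. Another 183 genes were called against WT in opposite directions in the 2 obese groups, 105 of them higher and 78 lower in Combo. Of the 3551 genes called in Vehicle vs WT and not in Combo vs WT, 2254 were called toward WT in Combo vs Vehicle, a comparison that called 2411 genes higher (14.1%) and 2085 lower (12.2%) in Combo.

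Among the immune cell lists, neutrophil genes stayed farthest from WT. Of 12 measured genes of neutrophil granules and receptors, 11 were higher than WT in Combo, with a median log2 fold change of 5.79, and the same 11 were higher in Vehicle, with a median of 5.45. S100a8 (chr3:90668978-90670035, GRCm38), which encodes a subunit of the antimicrobial protein calprotectin, was at 1992, 1980 and 1848 normalized counts in WT and at 121618, 124017 and 119394 in Combo, which is 62.7-fold higher (log2 fold change 5.97 ± 0.04 SE, adjusted p = 2.5e-20). Every Combo library lay far above every WT library, and the 3 Vehicle libraries lay higher still, at 329581, 306939 and 318196. Ngp (chr9:110419747-110423012), a secondary granule protein, was at 741, 680 and 765 in WT and 91502, 93395 and 91814 in Combo (6.98 ± 0.07, adjusted p = 1.8e-18), against 85263, 84888 and 84970 in Vehicle. The granule proteins thus did not move as a block between Vehicle and Combo. The calprotectin subunits S100a8 and S100a9 and the collagenase Mmp8 were lower in Combo than in Vehicle (log2 fold changes -1.39, -1.22 and -1.01), the difference for Ngp and lactoferrin (Ltf) missed the threshold (0.12 and 0.14), and the primary granule enzymes were higher.

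Mpo (chr11:87793581-87804413), the myeloperoxidase made by granulocyte precursors, was at 70, 76 and 100 normalized counts in WT, at 202, 377 and 474 in Vehicle and at 6934, 7453 and 7295 in Combo. The 3 groups did not overlap, and Combo exceeded Vehicle 20.6-fold and WT 87.8-fold (log2 fold change against WT 6.46 ± 0.34, adjusted p = 3.7e-10). Elane, which encodes neutrophil elastase, followed the same order at 39, 31 and 25 in WT, 179, 160 and 169 in Vehicle and 2048, 2189 and 2279 in Combo (6.10 ± 0.30 against WT). The antimicrobial peptide gene Camp was higher in Combo than in WT by 6.48 ± 0.13 and higher than in Vehicle by 1.07. Mmp9, the gelatinase of tertiary granules, was the exception among the 12, at 0.82 ± 0.07 against WT, below the fold limit. Summed over the list, levels were 16445 to 16920 in WT, 729255 to 772317 in Vehicle and 440139 to 449439 in Combo, but 8978 to 9418 under beinaglutide alone and 16177 to 16789 under anti-IL-17A alone. The Xist-high groups, Vehicle and Combo, were also the groups with high neutrophil sums, and the part of sex in this result was not tested.

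**Figure D3:**
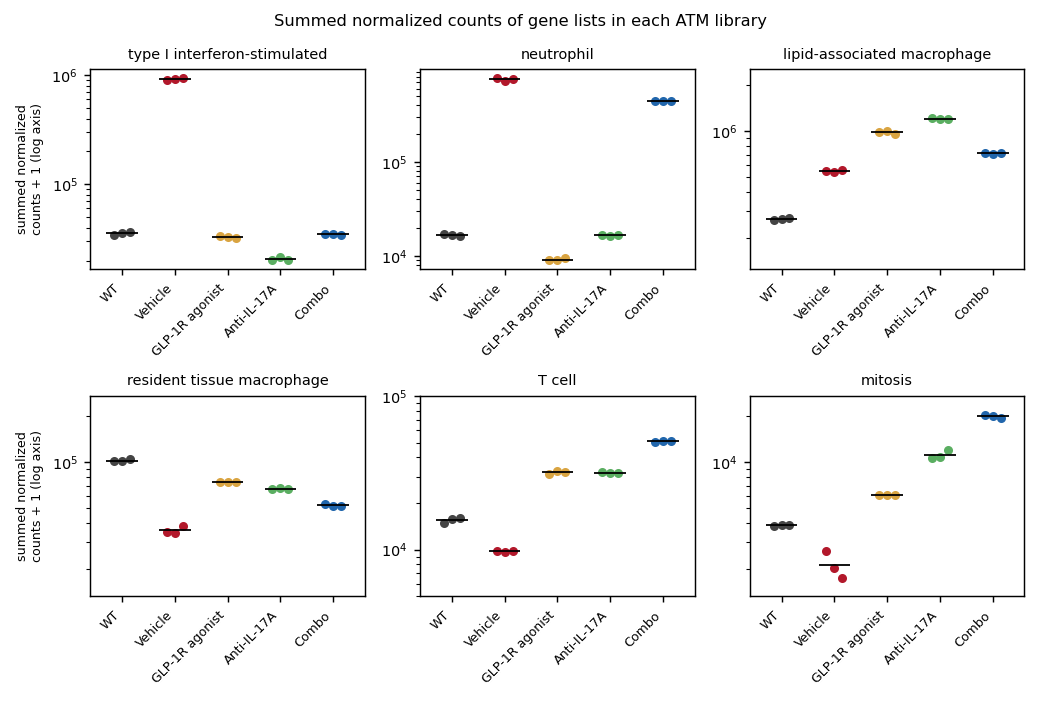
Summed normalized counts + 1 (log axes) of 6 gene lists in each of the 15 ATM libraries. Points are single libraries, 3 per group, and bars are group means. Type I interferon-stimulated genes are high in Vehicle alone, neutrophil genes in Vehicle and Combo, and T cell and mitosis genes are highest in the 3 Combo libraries.

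Several single genes of secreted defense proteins also stayed higher, and they were not tested as a group. Saa3 (chr7:46711998-46715700), an acute-phase serum amyloid made by macrophages and adipocytes, was at 187, 224 and 208 normalized counts in WT and 26825, 27092 and 25410 in Combo (7.0 ± 0.08, adjusted p = 6.0e-18). It was higher still in Vehicle, at 118319, 105108 and 114249, so that Combo stood 4.26-fold below Vehicle and 128-fold above WT. Lcn2, the iron-scavenging lipocalin that IL-17 signals induce, was at 1348, 1381 and 1400 in WT and 27160, 27460 and 26279 in Combo (4.29 ± 0.08), and at 122628 to 131457 in Vehicle. Its raw counts were 1073, 884 and 1337 under beinaglutide alone and 1973, 1851 and 1374 under anti-IL-17A alone. Neutrophil sums were also high in Vehicle and Combo only, and the part of neutrophils in the level of Lcn2 was not tested. Reg3g, a secreted antibacterial lectin, and Cxcl5, a neutrophil-attracting chemokine, both chosen after their values were seen, were higher than WT by 6.90 ± 0.29 and 7.06 ± 0.41 on the log2 scale. In each of these 4 genes Combo lay between WT and Vehicle with no overlap. Chil4, an acidic chitinase-like protein, was at 0 in every WT library and at 341, 632 and 350 in Combo, at least 132-fold higher, and at 8036 to 8156 in Vehicle. Outside the defense proteins, the keratins Krt6a and Krt6b and the airway-type protease Tmprss11g were likewise at 0 in WT. They were detected in all Combo libraries, at least 105-fold, 86.8-fold and 63.1-fold higher. Raw counts of Krt6a were 191, 232 and 200 in Vehicle, 7, 0 and 0 under beinaglutide alone and 0, 9 and 35 under anti-IL-17A alone. Vehicle and Combo were also the Xist-high groups, and the part of sex or of other tissue in these levels was not tested. Krt6a and Krt6b, and Chil4 and its neighbor Chil3, are near-identical copies, so their separate levels are uncertain.

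Most lipid-associated macrophage genes were higher than WT. Of 17 measured members 13 were higher than WT in Combo and 0 lower, with a median log2 fold change of 1.88, against 9 higher and 2 lower with a median of 1.27 in Vehicle. Gpnmb (chr6:49036546-49070929), a lysosomal glycoprotein of lipid-loaded macrophages, was at 7349, 7052 and 7758 normalized counts in WT and 87684, 85646 and 89402 in Combo (3.57 ± 0.04, adjusted p = 1.8e-18). Vehicle, at 25330 to 27196, lay between them, and Combo exceeded it 3.33-fold. Atp6v0d2, a subunit of the lysosomal proton pump, showed the same order, with log2 fold changes against WT of 3.40 ± 0.08 in Combo and 1.27 ± 0.07 in Vehicle. Spp1, which encodes osteopontin, was raised alike in both, by 4.11 ± 0.09 and 3.99 ± 0.09, and Combo minus Vehicle was 0.12 (adjusted p = 0.24). Galectin-3 (Lgals3) was higher than WT by 2.57 ± 0.03.

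Trem2 (chr17:48346401-48354147), the lipid receptor that defines this state, counted as new under Combo, that is against WT and Vehicle. It was at 1547, 1574 and 1492 normalized counts in WT and 1866, 1537 and 1341 in Vehicle, which overlap, and at 7392, 7365 and 7457 in Combo, 4.82-fold above WT (2.27 ± 0.08, adjusted p = 5.7e-12). Lipa (chr19:34492318-34527474), the lysosomal acid lipase that frees cholesterol from lipoproteins, was at 4217, 4611 and 4632 in WT, 3393, 2931 and 3175 in Vehicle and 16423, 16121 and 16868 in Combo (1.88 ± 0.05). Lipoprotein lipase (Lpl), chosen after its values were seen, was new as well at 2.52 ± 0.05. For each of these 3 genes the Combo libraries lay above every WT and Vehicle library. The single treatments were higher still for Trem2, at 10571, 10349 and 10453 under beinaglutide alone and 17483, 17573 and 17115 under anti-IL-17A alone. The summed lipid-associated list was at 714319 to 722291 in Combo, 965556 to 998261 under beinaglutide alone and 1194014 to 1213409 under anti-IL-17A alone, against 261511 to 269178 in WT. Among 17 lysosomal genes, 6 were higher than WT and 0 lower, led by the cathepsins Ctss (1.65 ± 0.03), Ctsd (1.61 ± 0.02) and Ctsb (1.39 ± 0.03). Exons of Ctsd share 34.4% of their bases with another gene, so reads could be counted for both. The Fc receptor Fcgr1 and the scavenger receptor Cd68 of the macrophage core list stayed higher (1.59 ± 0.10 and 1.70 ± 0.04), and lysozyme (Lyz2) was higher than WT in Combo (1.73 ± 0.03) but lower in Vehicle (-1.21 ± 0.03). F4/80 itself (Adgre1), on which cells were sorted, was at 6387, 6731 and 7619 in WT and 13434, 13309 and 13111 in Combo, a difference of 0.94 ± 0.12 that is below the fold limit; without the third WT library it was 1.02 and called.

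**Figure D4:**
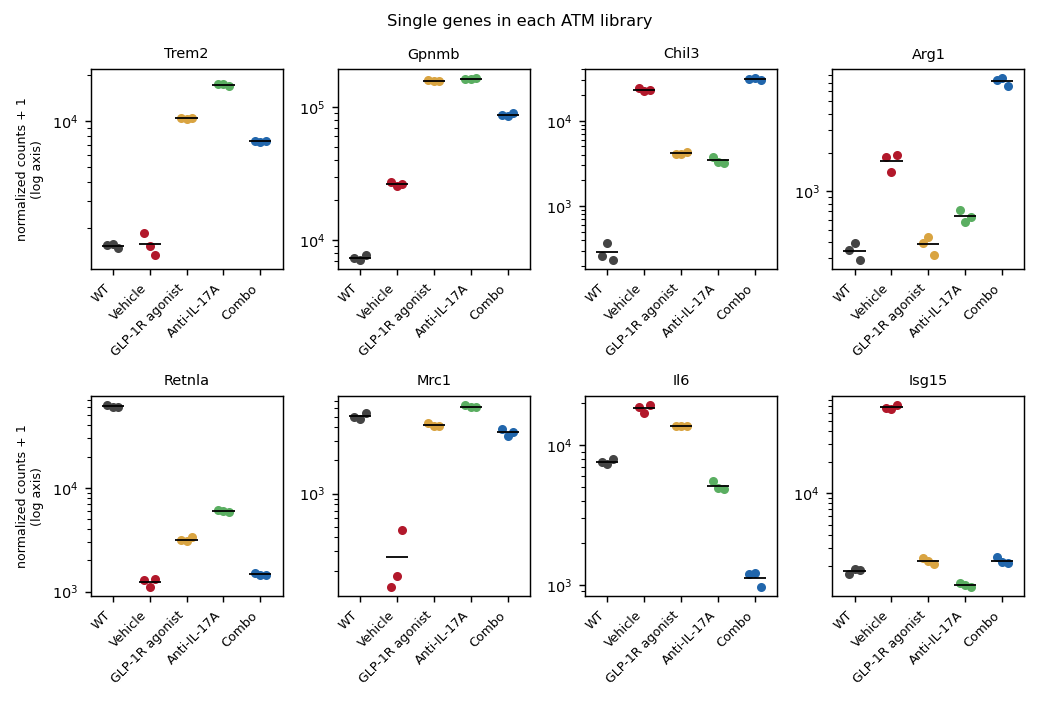
Normalized counts + 1 (log axes) of 8 genes in each of the 15 ATM libraries. Points are single libraries, 3 per group, and bars are group means. Trem2 is raised in Combo and not in Vehicle, Arg1 is highest in Combo, Retnla is low in every Ob/Ob group, Il6 is lowest in Combo, and Mrc1 and Isg15 are near WT in Combo and far from it in Vehicle.

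Fewer resident macrophage genes were called lower in Combo than in Vehicle. Of 15 measured genes 5 remained lower in Combo and 0 were higher, with a median log2 fold change of -0.69, whereas 13 were lower in Vehicle with a median of -2.69. Fcna (chr2:25624666-25628030), which encodes the lectin ficolin-A, was at 13870, 14117 and 14642 normalized counts in WT, 110, 204 and 177 in Vehicle and 2135, 1824 and 2033 in Combo (-2.83 ± 0.12, adjusted p = 3.5e-11 against WT). Lyve1, the hyaluronan receptor, showed no step back, at 3692, 3616 and 3995 in WT, 590, 798 and 703 in Vehicle and 473, 808 and 805 in Combo (-2.44 ± 0.20). The eosinophil attractant Ccl24 (-2.63 ± 0.41), the bridging ligand Gas6 (-1.67 ± 0.10) and coagulation factor F13a1 (-1.34 ± 0.27) were the other 3 that stayed lower, each called closer to WT than in Vehicle. The mannose receptor Mrc1, at 140, 178 and 470 in Vehicle, was at 3901, 3368 and 3609 in Combo against 5008, 4783 and 5434 in WT, and -0.48 ± 0.24 missed the threshold (adjusted p = 0.12). The hemoglobin receptor Cd163 (-0.52 ± 0.25) also missed it.

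Retnla and Arg1, both markers of alternative activation, moved in opposite directions. Retnla (chr16:48842551-48844461), a secreted resistin-like protein, was at 62282, 60692 and 60581 normalized counts in WT and 1517, 1444 and 1431 in Combo, 41.8-fold lower (-5.39 ± 0.06, adjusted p = 7.6e-18), and at 1289, 1101 and 1311 in Vehicle. Arg1 (chr10:24915221-24927484), the arginase that depletes arginine around T cells, was at 350, 393 and 289 in WT, 1841, 1409 and 1916 in Vehicle and 7327, 7546 and 6614 in Combo (4.38 ± 0.16, adjusted p = 6.8e-12 against WT). Combo minus Vehicle was 0.25 for Retnla, below the fold limit, while Arg1 stood 4.16-fold above Vehicle. Chil3, a chitinase-like protein of monocytes and activated macrophages, was at 260, 371 and 231 in WT and 31018, 31390 and 30385 in Combo (6.75 ± 0.13). Its raw counts were 35905, 34764 and 32045 in Combo and 18129, 15319 and 15277 in Vehicle. They were 4095, 3022 and 5002 under beinaglutide alone and 5351, 4345 and 4051 under anti-IL-17A alone. Neutrophil sums were high in Vehicle and Combo only, and the part of neutrophils in the level of Chil3 was not tested. The C-type lectin Mgl2 was lower than WT in Combo by -1.84 ± 0.20. Over the 16 genes of the alternative-activation list 3 were higher and 3 lower, next to 7.08% and 14.5% of all genes. The anti-inflammatory cytokine Il10 (0.82 ± 0.16) was below the fold limit.

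Most cell cycle genes listed were higher in Combo than in WT and in Vehicle. Of 14 mitosis genes 12 were higher than WT and 0 lower, with a median log2 fold change of 2.48, and all 14 were higher than in Vehicle, where 6 were below WT and 0 above. Mki67 (chr7:135689784-135716361), the proliferation antigen, was at 344, 293 and 243 normalized counts in WT, 123, 272 and 169 in Vehicle and 2390, 2245 and 2198 in Combo (2.96 ± 0.23, adjusted p = 4.6e-08), so every Combo library lay above every other library of these groups. The survivin gene Birc5 was higher than WT by 2.82 ± 0.16, the kinase Aurkb by 2.77 ± 0.47 and cyclin B2 (Ccnb2) by 2.74 ± 0.19. Top2a, the topoisomerase of dividing cells, was at 531, 614 and 487 in WT, 172, 178 and 153 in Vehicle and 2817, 2901 and 3237 in Combo. It was among the genes called in opposite directions, lower than WT in Vehicle (-1.70 ± 0.14) and higher in Combo (2.46 ± 0.14). Of 16 DNA replication and repair genes, 11 were higher than WT and 0 lower with a median of 1.55, against 0 higher and 7 lower in Vehicle. The ribonucleotide reductase subunit Rrm2 (2.36 ± 0.17) and the replicative helicase subunit Mcm5 (2.07 ± 0.11) were among them. Brca1 was called at 1.94 ± 0.74 but missed the threshold without any of 5 of the 6 libraries (1.65 to 2.10). Granulocyte precursors, T cells and erythroid cells can all divide. Mpo, as above, and T cell genes, as below, were higher in the same libraries. Of 5 erythroid genes 2 were higher than WT, among them the red cell anion exchanger Slc4a1 (3.02 ± 0.25). The summed erythroid list was at 128355 to 135755 in WT, 222774 to 225858 in Vehicle and 180272 to 185282 in Combo. The part of each of these cell types in the cell cycle result was not tested.

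Promoters of 2 of these genes are shown because the list moved together. Each is the 250 bases before the start of the gene in RefSeq (GRCm38.p6), on the gene's own strand, with CCAAT, the core of NF-Y sites, and TTTGAA, the core of cell cycle homology elements, in capitals.
Ccnb2, chr9:70421555-70421804, minus strand: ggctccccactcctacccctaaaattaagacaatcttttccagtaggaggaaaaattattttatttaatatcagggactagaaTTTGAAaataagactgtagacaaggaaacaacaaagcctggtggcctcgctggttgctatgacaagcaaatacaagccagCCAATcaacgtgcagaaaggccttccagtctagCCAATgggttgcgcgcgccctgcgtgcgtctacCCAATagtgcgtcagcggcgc
Cdc20, chr4:118437344-118437593, minus strand: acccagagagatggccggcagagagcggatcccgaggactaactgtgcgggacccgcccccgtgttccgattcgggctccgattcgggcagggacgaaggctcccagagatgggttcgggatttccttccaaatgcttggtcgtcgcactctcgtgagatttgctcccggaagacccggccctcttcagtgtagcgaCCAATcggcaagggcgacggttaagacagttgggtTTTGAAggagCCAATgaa
The Ccnb2 promoter held 3 CCAAT and 1 TTTGAA, and the Cdc20 promoter 2 and 1. Searched on both strands, CCAAT was in 12 of the 13 mitosis genes with a promoter entry and in 33.8% of 32851 promoters, and TTTGAA in 6 of 13 and in 16.0%. A listed gene counted if any of its promoter entries held the motif, whereas the percentages are over single entries, so the units differ. Cdc20, which activates the anaphase-promoting complex, was at 409, 382 and 450 normalized counts in WT, 32, 82 and 114 in Vehicle and 1744, 1805 and 1582 in Combo (2.05 ± 0.26 against WT).

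T cell genes were higher than WT in Combo without exception on the list. All 14 measured genes were called higher, with a median log2 fold change of 1.73, whereas 7 were lower and 1 higher in Vehicle, with a median of -1.0. Cd3d (chr9:44981786-44987339), a chain of the T cell receptor complex, was at 646, 548 and 599 normalized counts in WT, 534, 269 and 358 in Vehicle and 2287, 2370 and 2405 in Combo (1.98 ± 0.18, adjusted p = 2.6e-07). Cd4 was at 1143, 1253 and 1244 in WT and 4732, 5355 and 5358 in Combo (2.08 ± 0.16), and Cd8a at 310, 251 and 375 in WT and 986, 1079 and 1039 in Combo (1.73 ± 0.30). Both were below WT in every Vehicle library. The scavenger receptor family gene Cd5 had the largest difference of the list, 2.24 ± 0.20. The summed list was at 14878 to 16037 in WT, 9684 to 9860 in Vehicle and 50757 to 51266 in Combo, next to 31389 to 32385 under beinaglutide alone and 31430 to 32097 under anti-IL-17A alone.

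Of 11 checkpoint ligands and receptors 4 were higher than WT and 0 lower, and the inhibitory receptors Pdcd1 (PD-1, 0.63) and Lag3 (0.94) were among the 7 not called. Ctla4 (chr1:60887000-60915832), which competes with CD28 for its ligands, was at 861, 833 and 838 normalized counts in WT, 936, 1145 and 1220 in Vehicle and 4491, 5044 and 4475 in Combo (2.47 ± 0.11, adjusted p = 5.3e-11). Tigit (1.70 ± 0.18) was new as well, Havcr2, which encodes TIM-3, had stayed higher (1.83 ± 0.20), and Cd96 (1.79 ± 0.31) was lower than WT in Vehicle (-2.22 ± 0.34). The ligand Cd274, which encodes PD-L1, was at 2819, 3140 and 3821 in WT, 28737, 27003 and 28856 in Vehicle and 4060, 5368 and 4512 in Combo, and 0.51 ± 0.11 was below the fold limit. Of 11 cytotoxic lymphocyte genes 4 were higher, with Gzmb, a granzyme, at 2.32 ± 0.10, Ifng at 1.77 ± 0.17, the transcription factor Tbx21 at 1.65 ± 0.13 and Nkg7 at 1.60 ± 0.07. The exons of Ifng share 25.9% of their bases with another gene. The NK receptor Ncr1 (1.29 ± 0.71) missed the threshold and passed it in a fit of the compared groups alone (1.33).

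B and plasma cell genes went apart. Of 9 B cell genes 0 were higher and 3 lower, with a median of -1.72, and the receptor component Cd79a was at 4015, 4086 and 4820 normalized counts in WT and 1251, 1371 and 1292 in Combo (-1.72 ± 0.11). Of 7 plasma cell genes 4 were higher and 0 lower, among them the immunoglobulin joining chain Jchain, at 10956, 12030 and 12111 in WT and 29505, 30237 and 27801 in Combo (1.32 ± 0.05). Mzb1, an endoplasmic reticulum cofactor of antibody secretion, was higher by 3.35 ± 0.20, but 57.2% of its exon bases are shared with another gene. Dendritic cell genes were lower in 4 of 10 and higher in 0, with Cd209a (DC-SIGN) at -3.34 ± 0.38 and Dpp4 at -2.08 ± 0.23. Mast cell, basophil and eosinophil genes were higher in 9 of 12 and lower in 2, the eosinophil genes Siglecf (-2.07) and Ear2 (-1.39). The mast cell protease Mcpt4 (1.51 ± 0.07) and the IgE receptor chain Fcer1a (2.53 ± 0.20) stayed higher, while the eosinophil peroxidase Epx, at 0, 12 and 0 in WT and 121, 171 and 211 in Combo, was new (adjusted p = 0.018) and missed the threshold without the third Combo library (5.18) and with DESeq2 (5.44).

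**Figure D5:**
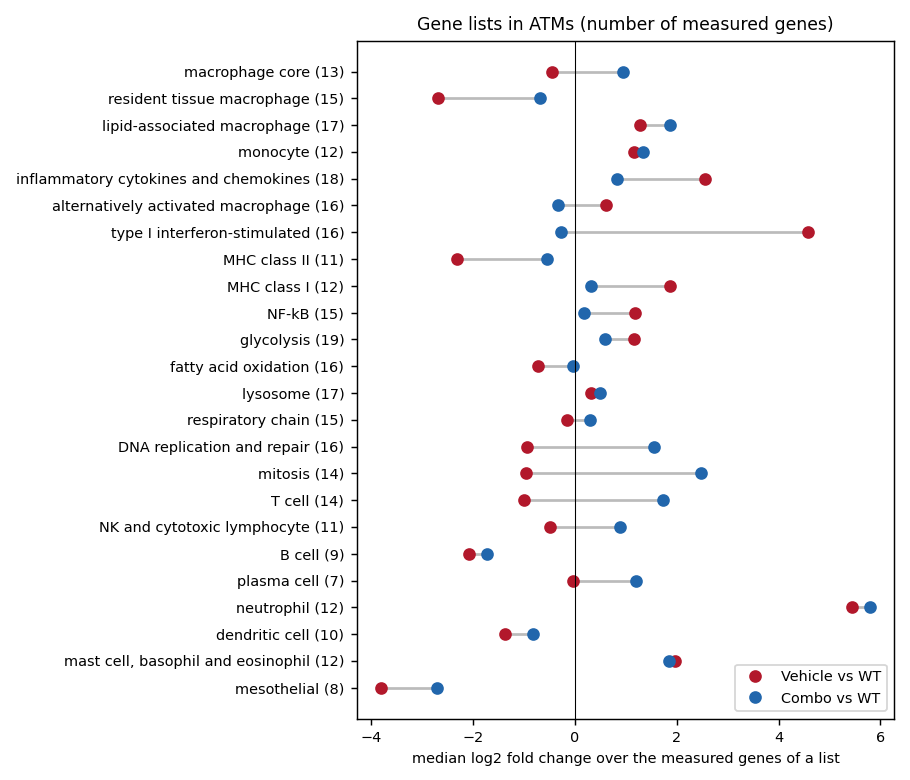
Median log2 fold change over the measured genes of 24 lists for Vehicle vs WT (red) and Combo vs WT (blue) in ATMs, which share the 3 WT libraries. Numbers in brackets are measured genes. The lines join the 2 medians of a list, and the interferon, mitosis, T cell and DNA replication lists have the longest lines.

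Type I interferon-stimulated genes were the clearest group that no longer stood above WT. All 16 were higher than WT in Vehicle, with a median log2 fold change of 4.59, and all 16 were lower in Combo than in Vehicle, with a median of -4.79. Against WT, 0 were higher and 4 lower in Combo, with a median of -0.26. Isg15 (chr4:156199424-156200818), a ubiquitin-like modifier, was at 1653, 1875 and 1825 normalized counts in WT, 66728, 65172 and 70592 in Vehicle and 2414, 2159 and 2134 in Combo, where 0.33 ± 0.07 was below the fold limit. Some members passed below WT. The antiviral GTPase Mx2 was at 235, 225 and 160 in WT, 3142, 3524 and 4022 in Vehicle and 54, 51 and 46 in Combo (-2.04 ± 0.22, adjusted p = 1.7e-06). Ifi44 (-1.77 ± 0.40) and the protease Usp18 (-1.44 ± 0.15) were lower than WT in Combo too. Oasl2 (-1.06 ± 0.13) lost its call without the second or the third Combo library (-0.99 and -0.98). The summed list was at 34402 to 36761 in WT, 908811 to 932408 in Vehicle and 34238 to 35231 in Combo.

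The promoters of 2 interferon-stimulated genes are given because the list moved as a block between Vehicle and the other 2 groups, with the core of the interferon-stimulated response element, GAAA, any 2 bases and GAAA, in capitals on whichever strand it lies.
Isg15, chr4:156200819-156201068, minus strand: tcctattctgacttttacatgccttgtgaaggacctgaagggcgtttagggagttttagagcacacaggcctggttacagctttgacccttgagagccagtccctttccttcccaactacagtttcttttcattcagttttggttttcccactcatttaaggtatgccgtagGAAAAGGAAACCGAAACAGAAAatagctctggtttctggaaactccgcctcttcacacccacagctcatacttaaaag
Rsad2, chr12:26456453-26456702, minus strand: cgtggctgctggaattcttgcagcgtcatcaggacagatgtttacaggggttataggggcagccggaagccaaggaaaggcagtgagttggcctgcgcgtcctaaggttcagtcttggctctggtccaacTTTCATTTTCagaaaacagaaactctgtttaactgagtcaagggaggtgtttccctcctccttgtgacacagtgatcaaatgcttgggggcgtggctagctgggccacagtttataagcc
The Isg15 promoter held 3 overlapping matches and the Rsad2 promoter 1, on the other strand. The motif was in 6 of the 10 listed genes with a promoter entry and in 2.98% of 32851 promoters, genes and single entries being different units here too. Rsad2, which encodes the antiviral enzyme viperin and was chosen after its values were seen, was at 6687, 6914 and 7541 normalized counts in WT, 193023, 206420 and 210339 in Vehicle and 10244, 11048 and 9558 in Combo.

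Antigen presentation and NF-kB genes were mostly not called against WT, as was true of most genes tested, of which 21.6% were called. Of all genes, 7.08% were higher and 14.5% lower in Combo, and 12.5% and 22.9% in Vehicle. Of 11 MHC class II genes 10 were lower than WT in Vehicle, with a median of -2.32, and 2 were lower in Combo, with a median of -0.55. The transactivator Ciita was at 669, 989 and 727 normalized counts in WT, 92, 78 and 76 in Vehicle and 773, 681 and 699 in Combo (-0.15 ± 0.20, adjusted p = 0.60). The class II chain H2-Aa was at 49055 to 52051 in WT and 31137 to 32167 in Combo, where -0.67 ± 0.04 was below the fold limit. H2-DMb2 (-1.80 ± 0.16) and H2-Ob (-1.70 ± 0.28), which act in the loading of peptides on class II, stayed lower. Of 12 MHC class I genes 10 were higher than WT in Vehicle and 1 in Combo, the immunoproteasome subunit Psmb8 at 1.01 ± 0.05, which fell under the fold limit without any of 3 of the 6 libraries (0.98 to 0.99). Of 15 NF-kB genes 8 were higher in Vehicle, and 0 were called in Combo, with a median of 0.17. At an unadjusted p below 0.05, 7 of the 15 were higher and 2 lower, and DESeq2 also called 0.

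Inflammatory cytokine and chemokine genes were called in both directions. Of 18, 8 were higher than WT and 5 lower in Combo, while 5 missed the call. The median log2 fold change of the list was 0.82, against 15 higher and 1 lower with a median of 2.56 in Vehicle. All 8 higher genes had stayed higher, 2 of the lower ones were above WT in Vehicle, and 1 had stayed lower. Il1b, the inflammasome cytokine, was at 2684, 2371 and 2807 normalized counts in WT and 11231, 12082 and 11461 in Combo (2.15 ± 0.07, adjusted p = 1.8e-12), Il1a was higher by 1.97 ± 0.27, and the nitric oxide synthase Nos2, at 71, 23 and 76 in WT and 708, 563 and 819 in Combo, by 3.62 ± 0.38. Il6 (chr5:30013114-30019981) was at 7556, 7336 and 7946 in WT, 18771, 17120 and 19389 in Vehicle and 1194, 1208 and 962 in Combo, 6.79-fold below WT (-2.76 ± 0.08, adjusted p = 5.4e-13), with no overlap between the 3 groups. Cyclooxygenase-2 (Ptgs2) was at 36059, 37817 and 37080 in WT, 8623 to 9458 in Vehicle and 4010, 3583 and 3344 in Combo (-3.34 ± 0.08). Tnf, at 0.64 ± 0.10, was below the fold limit. Il12b was called at -2.91 ± 1.10 (adjusted p = 0.045) and missed the threshold without any of 5 of the 6 libraries (-3.02 to -2.45). Ido1, the tryptophan-degrading enzyme that interferon induces, was at 166, 141 and 137 in WT, 892, 1195 and 947 in Vehicle and 0, 14 and 12 in Combo (-4.05 ± 0.65, adjusted p = 0.00012). Of 12 monocyte genes 6 were higher and 2 lower, with the classical monocyte antigen Ly6c2 at 2.98 ± 0.06 and the chemokine receptor Ccr2, lower than WT in Vehicle, at 1.43 ± 0.12 in Combo. The 2 lower monocyte genes were Plac8 (-1.75) and Ace (-1.69).

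Genes around the targets of the treatment and of the transplant were examined next. Il17a was at 30, 47 and 23 normalized counts in WT, 212, 172 and 278 in Vehicle and 117, 84 and 69 in Combo, a difference from WT of 1.43 ± 0.65 that missed the threshold (adjusted p = 0.094) and passed it with DESeq2 (1.44) and in a fit of the compared groups alone. Its receptor chain Il17ra was at 0.05 ± 0.09, and the partner chain Il17rc was new and lower (-1.10 ± 0.17). Of 14 genes of the IL-17 axis, 1 was higher (Lcn2) and 1 lower, next to 7.08% and 14.5% of all genes. Ptpn11, at 2575, 2580 and 1703 in WT and 2201, 2096 and 2010 in Combo, missed the threshold (-0.12 ± 0.18), and of 18 Shp2 and ERK genes 1 was higher, the phosphatase Dusp4 (1.24 ± 0.11), and 1 lower, the feedback inhibitor Spry2 (-1.07 ± 0.18). These counts too stand next to 7.08% and 14.5% of all genes. Leptin (Lep) transcripts, whose levels do not show whether the protein works, were at 120, 254 and 348 in WT and 1150, 794 and 976 in Combo (2.01 ± 0.33, adjusted p = 0.00014), next to adipocyte genes that were lower, such as adipsin (Cfd, -3.19 ± 0.33). Of 12 adipocyte genes 1 was higher and 4 lower.

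Glucose metabolism genes stayed higher in part, and no lipid oxidation gene on the list was called. The counts below stand next to 7.08% of all genes higher and 14.5% lower in Combo. Of 19 glycolysis genes 5 were higher and 2 lower. The hexokinase of myeloid cells, Hk3, was at 856, 814 and 954 normalized counts in WT and 4577, 4149 and 4439 in Combo (2.33 ± 0.10, adjusted p = 2.5e-11), and Pkm (1.43 ± 0.04) and Gapdh (1.16 ± 0.03) were higher. Hk2 (-0.55 ± 0.10) was below the fold limit, and Pdk4, which diverts pyruvate from oxidation, was lower (-1.32 ± 0.15). Of 16 fatty acid oxidation genes, 15 respiratory chain genes and 10 cholesterol efflux genes 0 were called by edgeR or by DESeq2, with medians of -0.03, 0.30 and 0.04. At an unadjusted p below 0.05, edgeR had 3, 11 and 3 of them higher and 5, 1 and 1 lower, and Cpt1a, the gate to mitochondrial oxidation, was at -0.22 ± 0.10. Of 17 fatty acid and cholesterol synthesis genes 2 were higher and 2 lower. The desaturases Scd1, at 19792, 20350 and 19617 in WT and 4164, 4982 and 4634 in Combo (-2.12 ± 0.14), and Scd2 (-1.53 ± 0.14) stayed lower. Fasn (-0.73 ± 0.19) was below the fold limit. Among stress genes, 0 of 16 immediate early and heat shock genes were higher and 2 lower, with Egr1 at 182654 to 188093 in WT and 65737 to 68370 in Combo (-1.47 ± 0.02), and 1 of 14 unfolded protein response genes was lower (Dnajb9, -1.18 ± 0.07). Of 39 genes that the study names for ATMs 8 were higher and 2 lower, and of 37 immune genes that it shows under treatment 13 were higher and 3 lower. The study chose both lists on these samples, so they are not independent evidence of a direction.

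The largest differences of all belonged to other organs. Serpina1f, an epididymal protease inhibitor, was at 37123, 37850 and 38651 normalized counts in WT and at 0 in every Combo and Vehicle library, at least 13950-fold lower. The defensins Defb42 and Defb43, Spink11, Crygc and Crisp1 had the next largest negative log2 fold changes among genes of at least 100 normalized counts, and 8 of 9 measured epididymis genes and all 7 spermatid genes were lower, with medians of -10.49 and -7.95, or -6.05 and -6.77 with genes at 0 set to their bound. In the other direction, 15 of 16 pancreatic acinar genes were higher and new, with a median of 9.77 (9.54 at the bound). Pnlip, pancreatic lipase, was at 0 in every WT and Vehicle library and at 3692, 3593 and 3776 in Combo, at least 1106-fold higher, and Cela3b, Try5, Cpa1, Sycn and Reg2 were at 0 in WT as well, at least 491-fold to 1022-fold higher. Gp2, a membrane protein of zymogen granules, was at 0 in WT but present in Vehicle (820 to 1205) and in Combo (1753, 1780 and 1921), so it counted as staying different. All 8 mesothelial genes were lower, with the uroplakin Upk3b at 19256, 20287 and 20237 in WT and 2425, 2185 and 2086 in Combo (-3.16 ± 0.13). The largest new decreases were in Slc13a2 (-4.96 ± 1.06), Tfcp2l1 (-4.35 ± 0.66), Bcl2l14 (-4.24 ± 0.52), Tmprss2 (-3.77 ± 0.25) and Dzip1l (-3.63 ± 0.47), and 26.2% of the exon bases of Slc13a2 are shared with another gene. Tmprss2, an epithelial membrane protease, was at 1056, 1488 and 1246 in WT and 58, 115 and 106 in Combo. Fibroblast genes were higher in 2 of 11 and lower in 0, endothelial genes lower in 2 of 9 and higher in 0. The higher fibroblast genes were Cxcl14 and Thy1, and Thy1 is also on the T cell list. Of 8 seminal vesicle genes 2 were higher and 1 lower, of 3 ovary genes 1 was higher, and of 5 erythroid genes 2 were higher. The counts from fibroblast to erythroid genes stand next to 7.08% of all genes higher and 14.5% lower.

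Combo differed from WT in BM too, and the test of the difference between tissues was called for 3086 of the 13076 genes measured in both (23.6%). For T cell genes the median log2 fold change was 1.78 in ATMs and -1.12 in BM, and the difference was called for 14 of 14. Neutrophil genes had medians of 5.84 in ATMs and 0.49 in BM (11 of 12 called), lipid-associated macrophage genes 1.92 and -0.36 (16 of 17), mitosis genes 2.53 and 0.33 (11 of 14) and MHC class II genes -0.51 and -2.79 (9 of 11). The log2 fold change of Trem2 was 2.31 in ATMs and -0.05 in BM, and the difference of 2.36 was called. BM is whole marrow and ATMs are a sorted population, so tissue and sorting cannot be told apart in these differences. In BM too, Xist was higher in Combo than in WT (log2 fold change 11.01) and Ddx3y lower (-3.27). Sex composition therefore cannot be told apart from the group in either tissue.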

How the data were processed

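RNA of F4/80+ ATMs and of BM was sequenced from 5 groups of 3 mice. According to the submitters' processing notes and the methods of the study, the authors aligned reads with STAR 2.7.2a to mm10 and counted read pairs on GENCODE M22 genes with featureCounts 2.0.1, ignoring strand, keeping pairs of mapping quality 10 or higher and counting a read over several genes for each. The deposited values are raw counts per gene, among which genes with the fewest counts were not included (smallest total 54 over the 15 ATM libraries). Groups come from the sample titles.

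Counts were analysed with edgeR 4.0.16 in R 4.3.3: TMM, filterByExpr (0 genes removed), 1 robust quasi-likelihood fit of the 15 ATM libraries and 2-sided tests, called at an adjusted p below 0.05 (Benjamini-Hochberg over all genes) and an absolute log2 fold change above 1. SE is the log2 fold change divided by the root of F. The tissue difference came from 1 fit of 30 libraries. A group at 0 was set to 3 counts per library for a bound. The biological coefficient of variation was 32.5%, and libraries of 24876074 or more counts limit the precision for genes of few counts as given in the report. The test was checked on simulated counts.

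The comparison and the 43 gene lists were chosen with earlier results of these data known, and the epididymis, spermatid, seminal vesicle and pancreatic acinar lists after such genes had been noticed. Gene models without a symbol were counted and not named. Named genes are the 6 largest called differences in each direction and the 5 largest among genes that stayed or were new (mean of at least 100 normalized counts, no overlap of groups), up to 4 called members and the first 2 members of each list, and a fixed list of genes of the study. Cd163, Cdc20, Cxcl5, F13a1, Lag3, Lpl, Ltf, Mmp8, Mmp9, Pdcd1, Reg3g and Rsad2 were chosen after their values were seen. Alternatives were DESeq2 1.42.0, its size factors, other filters and fold limits, the replicate block, only the groups compared, and leaving out each library. Positions are GENCODE M21 (GRCm38) and promoters RefSeq (GRCm38.p6). Some genes are not reported here.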

Additional observations from a re-analysis of the deposited data

Results flagged for a closer look

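The Combo vs WT difference was itself called different between ATMs and BM for 3086 genes. Among the genes of the study that were read in both tissues, 14 of 22 were among them, given here as ATM minus BM on the log2 scale. The difference was 5.34 for Arg1, 4.16 for Il1b, 3.69 for Cd3d, 2.96 for Cd8a, 2.94 for Cd4, 2.81 for Cd96, 2.7 for Ciita, 2.36 for Trem2, 1.83 for Adgre1 and 1.47 for Cd274. It was -4.86 for Xist, -2.00 for Fasn, -1.96 for Il6 and -1.41 for Hk2. Xist was higher in Combo than in WT in both tissues, so sex composition cannot be told apart from the group in either. Il1b, Cd3d and Cd8a were called in opposite directions, higher than WT in ATMs and lower in BM.

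Transcripts of male reproductive organs were also present in ATM libraries that no comparison of the report uses. Seminal vesicle genes summed to at least 76719 normalized counts in the libraries of beinaglutide alone and 14226 in those of anti-IL-17A alone, next to 617 to 713 in WT and 103 to 125 in Combo. Spermatid genes summed to at least 21634 and 24924 in the same libraries, next to 4177 to 4566 in WT.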

How the results depend on the processing

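The count of genes called between Combo and WT (3681) was 3681 with DESeq2 size factors, 3681 without the low-count filter, 3995 with DESeq2 (3649 shared), 3673 in a fit of only the groups compared (1367 higher, 2306 lower) and 3676 with library totals free of other-organ genes. With at least 10 counts asked in every library it was 2064 (1005 higher and 1059 lower, so 48.7% higher against 32.8%), with 3934 in Vehicle vs WT and 1079 that stayed different. Tested against a log2 fold change of 1 it was 2296 (735 higher and 1561 lower), with 2591 in Combo vs Vehicle, 1481 that stayed, 405 new and 1653 between tissues. With no fold limit it was 7010 (3044 higher and 3966 lower, 43.4% higher), with 9704 in Vehicle vs WT, 8309 in Combo vs Vehicle, 4396 that stayed, 1213 new and 6615 between tissues. Chosen after seeing the data, leaving out genes at 3 counts or fewer in every library of a group gave 2740 (1122 higher and 1618 lower), and leaving out chromosomes X and Y gave 3560. These settings change the genes tested or the limit.

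Without each library in turn, Combo vs WT called 3358 to 3423 genes, 1119 to 1158 higher and 2239 to 2284 lower, Vehicle vs WT 5668 to 5990 and Combo vs Vehicle 4269 to 4517. Genes that stayed numbered 2119 to 2311, new genes 670 to 740 and tissue differences 2949 to 3088. Same-numbered libraries did not deviate together (correlations of -0.03 to 0.03 over 12589 genes), so the numbers do not pair the libraries, and with the replicate block 3571 genes were called, 3488 of them shared. Among the genes of the text that were run under these settings, the block ended the call of Brca1 (1.83). None of them that was called in the main fit changed direction. Direction was not followed for genes not called there, and the genes chosen after their values were seen were not run. Genes of 10 to 100 normalized counts, with a spread of 41.8% in WT, are where depth limits the calls.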
